A study of Mus musculus with 18 samples.

Results

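Osteoblast lineage genes were measured on microarrays in marrow cells of NeuT and BALB/c mice that carry the label of mesenchymal stromal cells, the marrow's precursors of bone, fat and cartilage cells. The members are 9 listed genes: Sp7, Alpl, Bglap, Bglap2, Ibsp, Spp1, Sparc, Dmp1 and Phex. Of these, 8 had a named probe set, out of 19505 genes measured. Spp1, which encodes osteopontin, was not analysed here because no probe set was paired with its name. Each of the other 8 had 1 probe set, and all values below are its log2 signals, so a difference of 1 is a doubling.

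Osteoblasts build bone by laying down a collagen matrix and then mineralising it. The transcription factors Runx2 and Sp7 (osterix) commit precursors to the lineage, alkaline phosphatase (Alpl) frees phosphate for mineral, and matrix proteins such as bone sialoprotein (Ibsp), osteonectin (Sparc) and osteocalcin (Bglap, Bglap2) follow. Cells buried in the matrix become osteocytes, which make Dmp1 and Phex and through them control phosphate. In the marrow, osteoblasts and their precursors line the bone surface and support blood formation.

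Each of 18 arrays held the RNA of 1 mouse. NeuT mice, known to carry an activated rat Erbb2 oncogene and to develop mammary tumours, gave 5 arrays at 12 weeks of age, labelled as an early stage of tumour formation, and 4 at 24 weeks, labelled as a late stage. BALB/c controls gave 5 arrays at 12 weeks and 4 at 24 weeks. Since NeuT mice of either age are labelled as bearing tumours, transgene and tumour cannot be told apart. The labels name neither the promoter of the transgene nor the sex of the mice. In all groups the cells were what remained of femur and tibia marrow after bead depletion of cells with blood-cell surface markers, CD45, Gr1 and B220 among them, and flow cytometry was used to type them.

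Median gene signals were 8.43 to 8.56 per array, with correlations between arrays of 0.978 to 0.997 across genes. Arrays that stood apart were replicate 4 of the NeuT mice at 12 weeks, replicate 1 of the NeuT mice at 24 weeks and replicate 3 of the BALB/c mice at 24 weeks, which correlated least with the rest. Replicate 1 of the BALB/c mice at 24 weeks had the lowest top signal (13.68, against up to 14.24). Negative control probe sets had a median of 7.35 and a 95th percentile of 10.46. Of 12 neutrophil markers, 6 lay above that percentile in all arrays, and of 13 markers of stromal and CXCL12-abundant reticular (CAR) cells only Igfbp4 did. Neutrophil genes thus gave high signals in cells labelled as stromal. In bulk samples such as these fewer cells of a type and less RNA per cell cannot be told apart.

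Most osteoblast genes lay near the controls too. Only Sparc exceeded 10.46, and it did so in all 18 arrays (10.55 to 12.07). Sparc is also known from platelets, endothelium and fibroblasts. The osteocalcin genes Bglap (9.20 to 9.59) and Bglap2 (9.27 to 9.84) were above the control median in all arrays and below the 95th percentile in all. Alpl (7.34 to 8.31) and Ibsp (7.35 to 8.72) were above the control median in 17 arrays each, and Dmp1 (7.68 to 8.47) and Phex (7.46 to 8.18) in 18. Sp7, the lineage's own transcription factor, was above it in 4 arrays only (6.83 to 7.42), so its log2 differences compare signals and not known amounts of transcript. Without detection calls no gene was called absent.

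**Figure D1:**
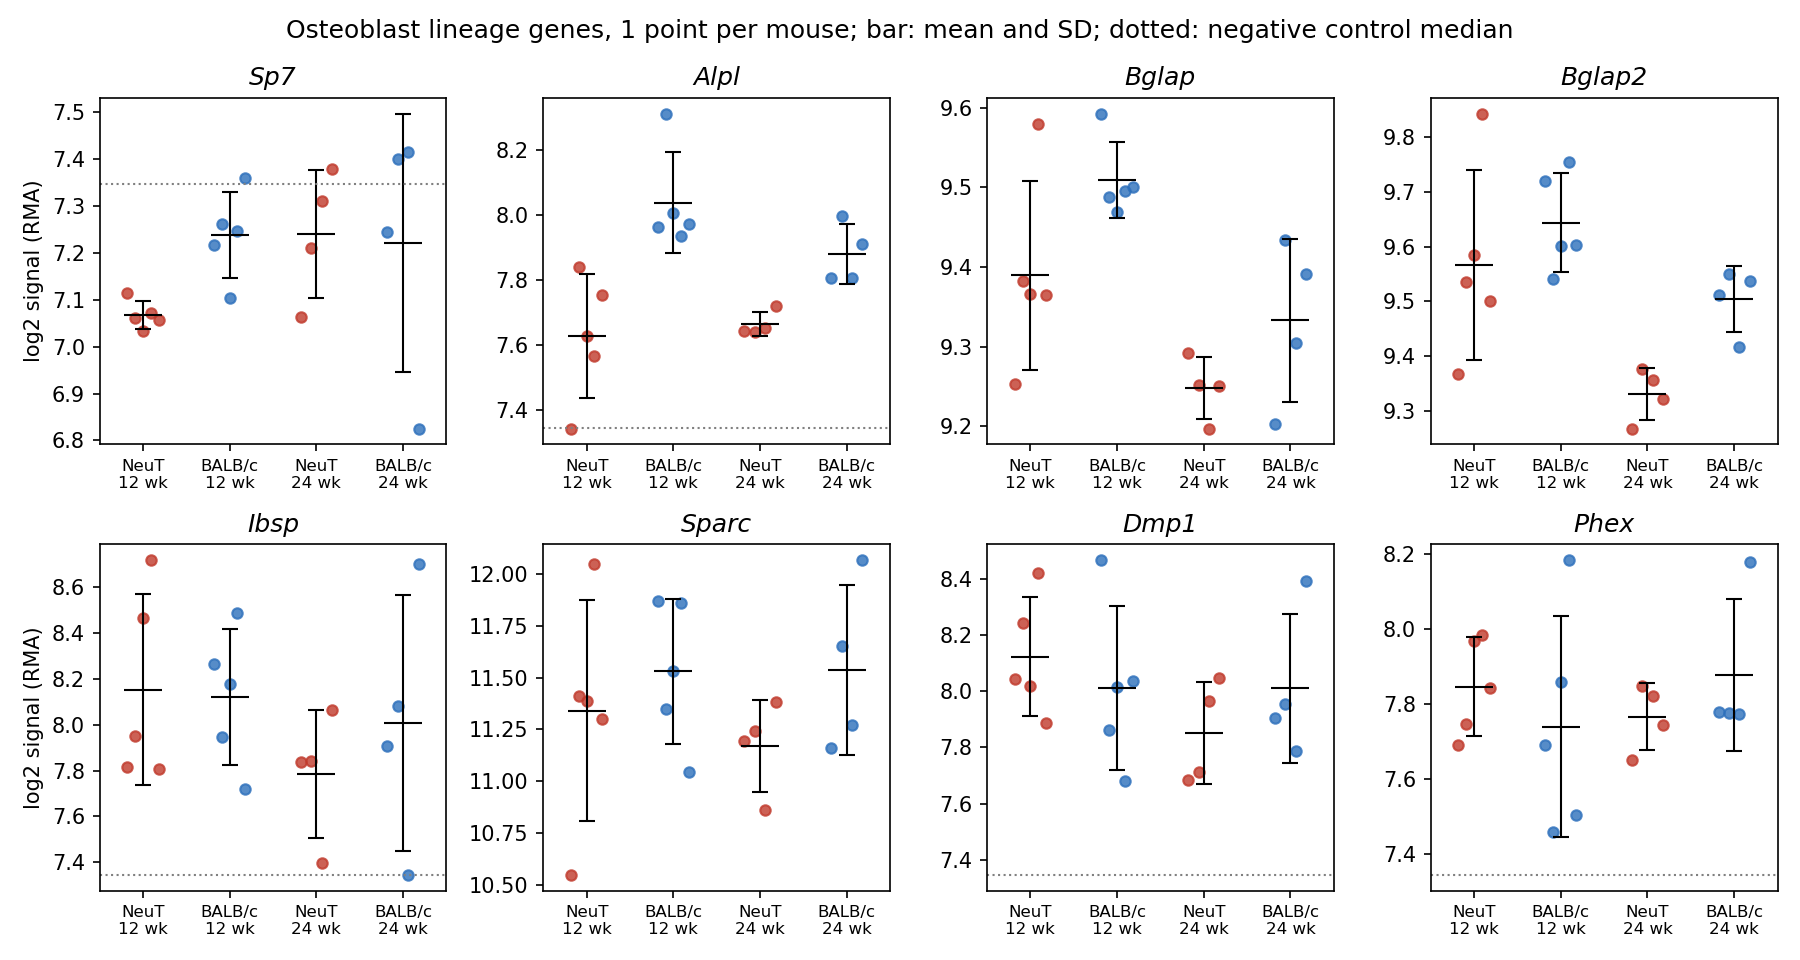
Log2 signal (vertical axes, each with its own range) of the 8 measured osteoblast lineage genes by group, with 1 point per mouse, bars for the mean and SD (n = 5 at 12 weeks, n = 4 at 24 weeks) and, where in range, a dotted line at the negative control median of 7.35. Alpl points of NeuT mice lie below those of BALB/c mice at both ages, while the groups overlap for Sparc, Ibsp, Dmp1 and Phex.

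Alpl was the only member past the threshold, and only at 12 weeks. It encodes tissue-nonspecific alkaline phosphatase, the enzyme that hydrolyses the mineralisation inhibitor pyrophosphate and an early mark of the osteoblast. At 12 weeks its log2 signals were 7.34, 7.84, 7.63, 7.57 and 7.75 in NeuT mice, against 7.96, 8.31, 8.01, 7.94 and 7.97 in BALB/c mice. Every NeuT array was below every BALB/c array. The means were 7.63 ± 0.19 in NeuT and 8.04 ± 0.16 in BALB/c mice (SD, n = 5 each), a log2 difference of -0.41 ± 0.087 (SE) and a ratio of 0.752 with a 95% confidence interval of 0.663 to 0.852. The limma adjusted p was 0.0116. Alpl lay below the 95th percentile of the negative controls in all arrays, so this ratio compares signals and not known amounts of transcript.

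At 24 weeks Alpl was again lower in every NeuT array, but the difference did not pass the threshold. Its signals were 7.64, 7.64, 7.65 and 7.72 in NeuT mice, against 7.81, 8.0, 7.81 and 7.91 in BALB/c mice. The log2 difference was -0.22 ± 0.098 (SE; limma adjusted p = 0.332). The interval for the difference of the NeuT effects at the ages, 24 minus 12 weeks, ran from -0.076 to 0.47 (estimate 0.20, limma adjusted p = 0.848), so a change of the effect with age was not shown. The order of the means was BALB/c at 12 weeks, BALB/c at 24 weeks, NeuT at 24 weeks and NeuT at 12 weeks, and the last neighbours (7.66 and 7.63) differed by less than the pooled SD of 0.14.

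The Alpl call at 12 weeks held in all 10 fits that left out 1 array, with log2 differences of -0.47 to -0.34 and limma adjusted p of 0.00595 to 0.0445. Blood-cell markers were read beside it. At 12 weeks 4 of 12 neutrophil markers passed as higher, and 0 of 9 B-cell markers passed in limma (6 at an unadjusted p under 0.05, all 9 with a negative difference). The mean log2 signal of the 12 neutrophil markers was 11.14 to 12.39 in NeuT and 10.996 to 11.59 in BALB/c mice at 12 weeks, and that of 9 B-cell markers was 9.62 to 10.98 in NeuT and 10.92 to 11.13 in BALB/c mice, so that the groups overlapped in both. At 24 weeks the neutrophil mean was 11.45 to 12.25 in NeuT and 10.92 to 11.45 in BALB/c mice, so that the groups met but did not overlap. With both list means as covariates, an alternative chosen after seeing the data, the log2 difference of Alpl was -0.33 and its call ended (limma adjusted p = 0.499), and 4 genes of 19505 passed in all. The same covariates put the 24-week difference of Alpl at -0.096 (limma adjusted p = 0.892). Alpl is not particular to bone, being also known from liver, kidney and human neutrophils, and the part of other cells in its change was not tested.

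Promoter sequences place these genes in the genome and let the Runx2 element be read. The 250 bases before the annotated start are given from RefSeq (GRCm38.p6), 5′ to 3′ on the strand of the gene, for the called gene Alpl, for Bglap, and for Ibsp and Sparc, which varied together between mice (given further on). Capitals mark the Runx core motif TGTGGT, or ACCACA on the other strand. These windows lie at chr4:137796385-137796634 (minus strand) for the upstream start of Alpl, chr3:88384467-88384716 (minus strand) for Bglap, chr5:104299037-104299286 (plus strand) for Ibsp and chr11:55420081-55420330 (minus strand) for Sparc.
Alpl: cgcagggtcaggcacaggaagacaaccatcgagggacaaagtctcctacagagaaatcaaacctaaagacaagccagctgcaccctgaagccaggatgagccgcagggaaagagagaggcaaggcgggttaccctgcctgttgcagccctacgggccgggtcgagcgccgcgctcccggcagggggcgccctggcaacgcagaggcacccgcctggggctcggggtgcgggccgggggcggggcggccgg
Bglap: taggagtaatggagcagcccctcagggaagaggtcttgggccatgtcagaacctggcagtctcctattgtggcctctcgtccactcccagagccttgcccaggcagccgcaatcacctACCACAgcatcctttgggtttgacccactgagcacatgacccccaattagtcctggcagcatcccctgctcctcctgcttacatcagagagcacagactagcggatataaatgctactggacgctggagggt
Ibsp: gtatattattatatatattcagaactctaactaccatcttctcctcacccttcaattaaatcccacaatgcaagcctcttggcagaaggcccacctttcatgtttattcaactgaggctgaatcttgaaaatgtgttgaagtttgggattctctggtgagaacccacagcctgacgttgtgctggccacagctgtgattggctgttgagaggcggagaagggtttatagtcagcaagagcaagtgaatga
Sparc: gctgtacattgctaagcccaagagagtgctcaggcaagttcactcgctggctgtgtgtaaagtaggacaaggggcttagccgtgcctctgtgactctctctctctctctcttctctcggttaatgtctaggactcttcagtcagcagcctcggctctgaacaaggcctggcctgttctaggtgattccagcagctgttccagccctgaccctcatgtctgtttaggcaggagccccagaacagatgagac
Promoters were found for 7 of the 9 genes, 10 windows in all, since Alpl, Dmp1 and Spp1 have more than 1 annotated start. The motif was in 3 of the 10, those of Bglap, Dmp1 (downstream start) and Spp1 (upstream start), and in 14.0% of all 32851 promoter windows of that length. The match in Bglap begins at -132 from the start. Runx2 is known to act on osteocalcin through an element of this kind in the proximal promoter. A match is a description and no measurement of binding, and Runx2 itself was not analysed here.

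The osteocalcin genes encode the vitamin K-dependent, calcium-binding protein that mature osteoblasts secrete. Bglap and Bglap2 are near-identical neighbours, and no source used here says whether each probe set reads only its own gene, so their values cannot be taken as independent. Bglap2 read 9.27, 9.38, 9.36 and 9.32 in NeuT mice at 24 weeks, against 9.51, 9.55, 9.42 and 9.54 in BALB/c mice. These groups did not overlap, yet the log2 difference of -0.17 ± 0.085 (SE) did not pass (limma adjusted p = 0.388). At 12 weeks Bglap2 read 9.37, 9.54, 9.59, 9.84 and 9.50 in NeuT mice, against 9.72, 9.54, 9.60, 9.76 and 9.60 in BALB/c mice, with overlap (log2 difference -0.078, limma adjusted p = 0.587).

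Bglap had the narrowest spread between arrays, its highest signal being 1.31 times its lowest. It read 9.25, 9.38, 9.37, 9.58 and 9.37 in NeuT mice at 12 weeks, against 9.59, 9.49, 9.47, 9.50 and 9.50 in BALB/c mice (log2 difference -0.12, limma adjusted p = 0.315). At 24 weeks it read 9.29, 9.25, 9.20 and 9.25 in NeuT mice, against 9.20, 9.43, 9.30 and 9.39 in BALB/c mice (log2 difference -0.085, limma adjusted p = 0.667). Groups overlapped at both ages. For both osteocalcin genes the means ran from BALB/c at 12 weeks through NeuT at 12 weeks and BALB/c at 24 weeks to NeuT at 24 weeks, and the middle neighbours differed by less than the pooled SD (gap of 0.056 for Bglap and 0.062 for Bglap2). The first gap of Bglap2 (0.078) was also below its pooled SD of 0.11. The last gap of Bglap was about as large as its pooled SD (0.085).

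Sparc encodes osteonectin, a collagen- and calcium-binding glycoprotein of the matrix. It varied most between mice: 10.55, 11.41, 11.39, 12.05 and 11.30 in NeuT mice at 12 weeks, against 11.87, 11.35, 11.53, 11.86 and 11.04 in BALB/c mice. At 24 weeks it read 11.19, 11.24, 10.86 and 11.38 in NeuT mice, against 11.16, 11.65, 11.27 and 12.07 in BALB/c mice. The lowest and the next to highest of the 18 arrays were both NeuT mice of 12 weeks, and the groups overlapped at both ages. The log2 differences were -0.19 ± 0.21 (SE) at 12 weeks and -0.37 ± 0.23 at 24 weeks (limma adjusted p = 0.627 and 0.521). The 24-week interval of -0.85 to 0.11 includes no change and also a fall of 0.85 on the log2 scale, and without the 4 arrays that stood apart, an alternative chosen after seeing the data, the value was -0.70 (limma adjusted p = 0.593). At 12 weeks the value was between -0.37 and 0.0062 when 1 array was left out.

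Ibsp encodes bone sialoprotein, which nucleates mineral. It read 7.81, 7.95, 8.47, 8.72 and 7.81 in NeuT mice at 12 weeks, against 8.27, 7.94, 8.18, 8.49 and 7.72 in BALB/c mice. At 24 weeks it read 7.84, 7.84, 7.40 and 8.06 in NeuT mice, against 7.91, 8.08, 7.35 and 8.70 in BALB/c mice. The groups overlapped at both ages. Its log2 differences were 0.032 ± 0.20 (SE) and -0.22 ± 0.23 at 12 and 24 weeks (limma adjusted p = 0.944 and 0.716). Leaving out 1 array put the 24-week value between -0.45 and 0.0068, and leaving out the 4 arrays that stood apart gave -0.62 (limma adjusted p = 0.637).

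The osteocyte genes gave no call either. Dmp1, an acidic matrix protein of osteocytes needed for mineralisation, averaged 8.12 ± 0.21 in NeuT and 8.01 ± 0.29 in BALB/c mice at 12 weeks (SD, n = 5 each), and 7.85 ± 0.18 in NeuT and 8.01 ± 0.26 in BALB/c mice at 24 weeks (SD, n = 4 each). Phex, an endopeptidase whose loss causes X-linked hypophosphataemic rickets, averaged 7.85 ± 0.13 in NeuT and 7.74 ± 0.29 in BALB/c mice at 12 weeks, and 7.77 ± 0.089 in NeuT and 7.88 ± 0.20 in BALB/c mice at 24 weeks. The differences were within the spread between mice, with limma adjusted p of 0.660 and 0.681 for Dmp1 and 0.616 and 0.752 for Phex. For Sparc, Ibsp, Dmp1 and Phex every gap between neighbours in the order of the 4 group means was smaller than the pooled SD.

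Sp7 read 7.11, 7.06, 7.03, 7.07 and 7.06 in NeuT mice at 12 weeks, against 7.22, 7.26, 7.10, 7.25 and 7.36 in BALB/c mice. The NeuT arrays were close together (SD 0.030) and all but 1 were below the lowest BALB/c array. The log2 difference of -0.17 ± 0.092 (SE) did not pass (limma adjusted p = 0.292), and all but 1 of these signals lay under the control median of 7.35. At 24 weeks the ranges were 7.06 to 7.38 in NeuT and 6.83 to 7.42 in BALB/c mice (log2 difference 0.019, limma adjusted p = 0.958).

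**Figure D2:**
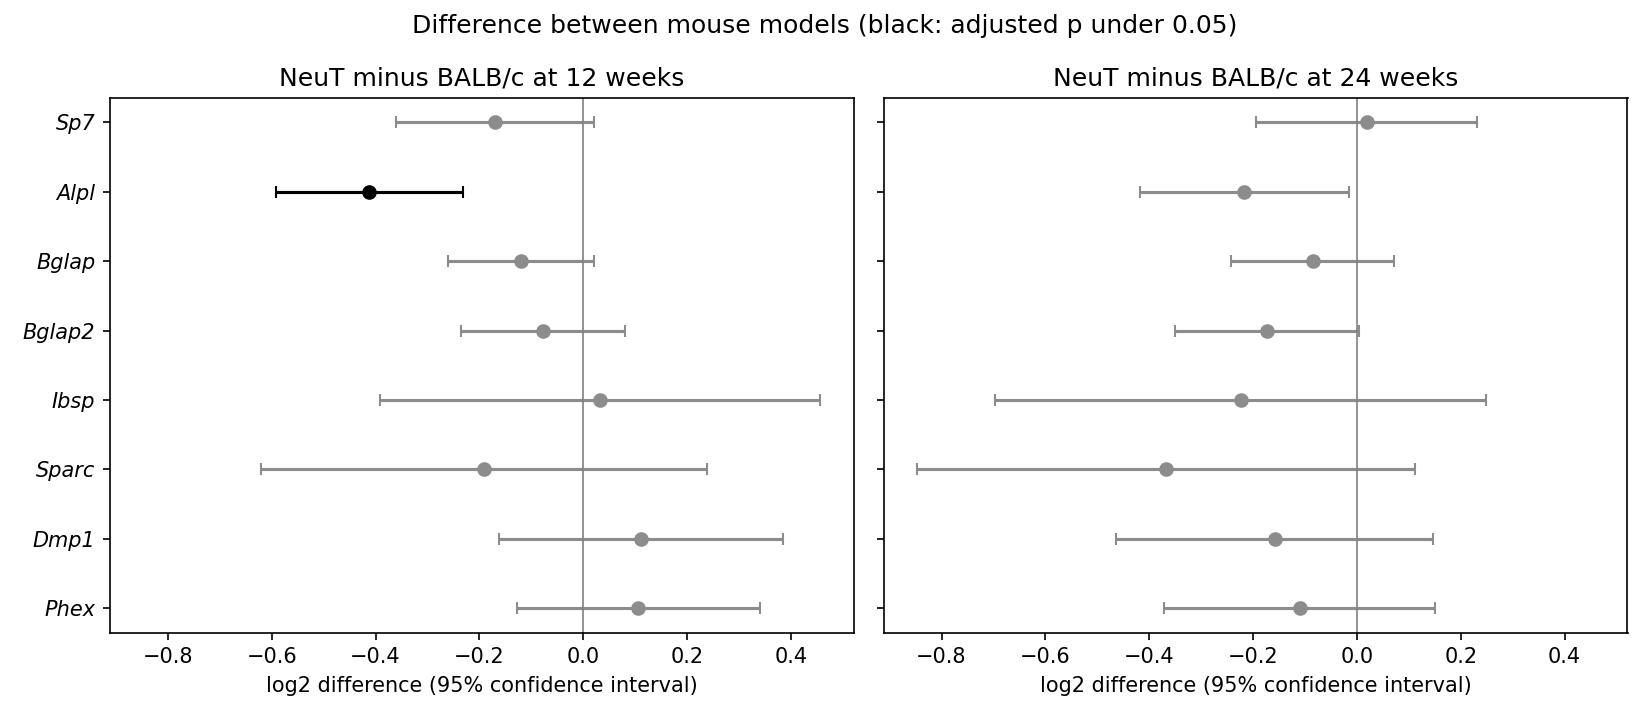
Log2 difference of NeuT minus BALB/c mice (horizontal axes) for each measured gene at 12 weeks (left) and 24 weeks (right), with bars for the 95% confidence interval of the limma fit and black for an adjusted p under 0.05. Alpl at 12 weeks (-0.41) is the only black point, and the widest intervals belong to Sparc and Ibsp.

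Counted together, 1 of the 8 members passed at 12 weeks, Alpl, which was lower. Of all 19505 genes 3.84% passed in that comparison and 0.687% passed as lower, and among 8 genes either share amounts to less than 1 gene. At an unadjusted p under 0.05 the count was also 1 of the 8 members, Alpl, against 21.0% of all genes. At 24 weeks 0 members passed in limma, against 1.40% of all genes called. An unadjusted p under 0.05 was seen for 1 of the 8 members, Alpl, a share near the 13.2% of all genes. The log2 differences had a median of -0.099 over the members and -0.025 over all genes at 12 weeks, and of -0.17 over the members and -0.00014 over all genes at 24 weeks. Single arrays moved these medians. Without replicate 1 of the NeuT mice at 12 weeks the 12-week median was -0.011 over the members, nearer 0 than the -0.029 over all genes, and without replicate 4 of those mice it was -0.16. Without replicate 4 of the BALB/c mice at 24 weeks the 24-week median was -0.089. At 24 weeks 7 of 8 members had a negative difference, a count that quantile normalisation of the deposited values and cyclic loess each left at 7, while at 12 weeks 5 of 8 did. Several of these genes vary together between mice, so their signs are not separate observations. The groups did not overlap for 1 member at 12 weeks (Alpl) and 2 at 24 weeks (Alpl and Bglap2), against 7.46% and 6.72% of all genes. The lowest confidence bound of any member was -0.62 at 12 weeks and -0.85 at 24 weeks, and the highest was 0.46 and 0.25, all for Sparc or Ibsp.

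The difference of the NeuT effects, 24 minus 12 weeks, gave 0 calls among the members in limma, against 0.0103% of all genes called. An unadjusted p under 0.05 was seen for 0 members, against 6.50% of all genes. Estimates ran from -0.27 for Dmp1 to 0.20 for Alpl. These intervals were wide, between -0.89 and 0.47 at the extremes.

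Age was compared within each mouse model. Age and any processing batch cannot be told apart, since the labels name no batch. In NeuT mice 0 of 8 members passed in limma for 24 minus 12 weeks, against 0.0359% of all genes. Against 12.6% of all genes, 1 of the 8 members had an unadjusted p under 0.05. That gene was Bglap2, with a log2 difference of -0.24 ± 0.081 (SE; limma adjusted p = 0.215), and its groups overlapped narrowly (highest 9.38 at 24 weeks, lowest 9.37 at 12 weeks). No member's groups were separate in NeuT mice, against 5.08% of all genes. In BALB/c mice 0 of 8 passed in limma, against 0.579% of all genes. Against 15.3% of all genes, 1 of the 8 members had an unadjusted p under 0.05. That gene was Bglap (log2 difference -0.18 ± 0.072 SE, limma adjusted p = 0.233), and its groups did not overlap, as was the case for 6.95% of all genes. Alpl differed by 0.038 in NeuT and -0.16 in BALB/c mice (limma adjusted p = 0.920 and 0.434).

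The members differed in how they varied between mice of the same group. Each array's deviation from its group mean was taken, and Pearson's r and Spearman's rho over the 18 arrays describe how alike genes were, without a test. Sparc and Ibsp deviated together (r = 0.82, rho = 0.85, and r = 0.83 without the 2 arrays farthest from the median of 1 of the genes). Sparc also went with Bglap (r = 0.81, rho = 0.81; 0.64 without 2 arrays), with Bglap2 (r = 0.78, rho = 0.74; 0.55) and with Phex (r = 0.63, rho = 0.62; 0.63). Replicate 4 of the NeuT mice at 12 weeks and replicate 4 of the BALB/c mice at 24 weeks stood high in Sparc (0.71 and 0.53 above their group means) and in Ibsp (0.57 and 0.69), and the first of these is among the arrays that stood apart. Replicate 1 of the NeuT mice at 12 weeks was lowest in Sparc (-0.79), Bglap (-0.14), Bglap2 (-0.20) and Alpl (-0.28).

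Among all other 19504 genes ranked by r with Sparc, Ibsp was at rank 18, Bglap at 22 and Bglap2 at 43. The genes most alike to Sparc were Cpe (r = 0.91, rho = 0.86), which encodes carboxypeptidase E, Mapk1ip1 (r = 0.89) and Fam214a (r = 0.88). What kinds of genes the others ranked above Ibsp were was not examined. Mapk1ip1 (r = 0.90) and Fam214a (r = 0.91) were also among the 3 most alike to Bglap2, after Ing2 (r = 0.92). Ibsp was most like Plgrkt (r = 0.89), which encodes a plasminogen receptor, Txndc11 (r = 0.88) and Wdr53 (r = 0.85), and Bglap most like Lrrfip2 (r = 0.90), Zfp595 (r = 0.90) and Brd9 (r = 0.88). Phex was most like Cep43 (r = 0.84), Brms1l (r = 0.79) and Tmem243 (r = 0.79). The likeness of Sparc, Ibsp and the osteocalcin genes thus sat within a larger set of genes that differed between the same arrays. With the marker lists, the r of Sparc was 0.44 for B cells, 0.41 for megakaryocytes and platelets, 0.39 for endothelium, 0.24 for stromal and CAR cells and 0.18 for osteoclasts. Its rho for these lists, in the same order, was 0.26, 0.32, 0.30, 0.31 and 0.20. Bglap2 had an r of 0.57 for B cells (rho = 0.41), 0.55 for megakaryocytes and platelets (rho = 0.54) and 0.50 for adipocytes (rho = 0.48).

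Alpl, Dmp1 and Sp7 had other nearest genes. Alpl was most like Casp2 (r = 0.84, rho = 0.85), Tbxas1 (r = 0.82, rho = 0.78) and Dok2 (r = 0.81, rho = 0.73). Within groups its r with the neutrophil marker list was -0.18 and with the osteoclast list 0.56 (rho = 0.43). With the B-cell list its r was 0.31 (rho = 0.065), with the adipocyte list -0.37 (rho = -0.45) and with the chondrocyte list -0.35 (rho = -0.45). Sp7 ran against Ibsp (r = -0.56, rho = -0.46), but only an r of -0.17 was left without 2 arrays. Its nearest genes were Sval3 (r = 0.81), Fbn2 (r = 0.81) and Tmem132d (r = 0.79), and its r with the endothelial list was -0.69. Dmp1 was most like Adam22 (r = 0.80), Syde1 (r = 0.78) and Rtp4 (r = 0.78). Bglap and Bglap2 had an r of 0.72 (rho = 0.60), which was 0.29 without 2 arrays, so that this pair's likeness rested on those arrays. Over all 28 pairs of members the median r was 0.25 (lowest -0.56, highest 0.82).

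**Figure D3:**
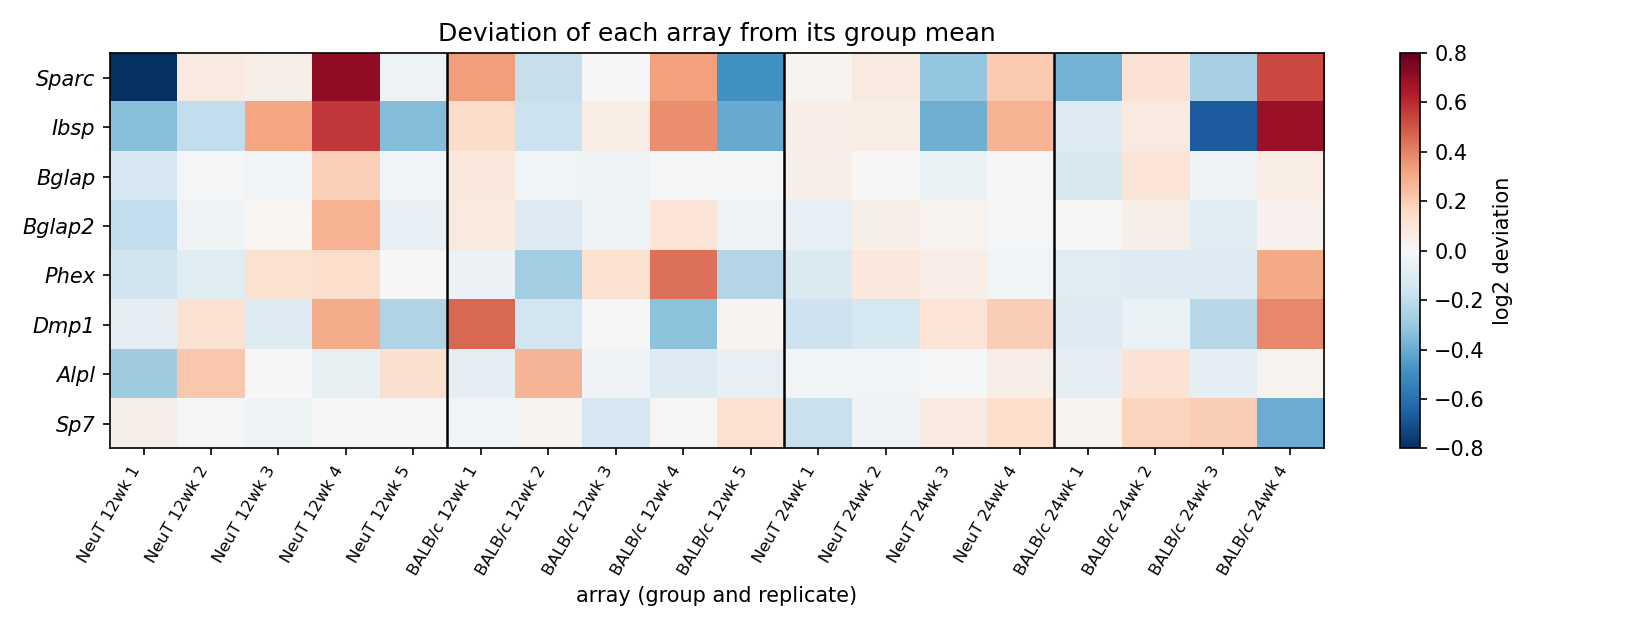
Deviation of each array from its group mean (colour, log2 scale from -0.8 in blue to 0.8 in red) for the 8 genes (rows) in the 18 arrays (columns, by group and replicate, with black lines between groups). Sparc and Ibsp are both at their reddest in the fourth NeuT array at 12 weeks and the fourth BALB/c array at 24 weeks, while their deepest blues lie in different columns, Sparc at -0.79 in the first NeuT array at 12 weeks and Ibsp at -0.66 in the third BALB/c array at 24 weeks.

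Other bone genes were taken from 4 lists holding 42 genes, of which 37 were measured. None passed in limma for NeuT against BALB/c mice at 12 weeks (6 at an unadjusted p under 0.05) or at 24 weeks (5), for the difference of the effects (4), or for age in NeuT (6) or in BALB/c mice (3). The shares of all genes at an unadjusted p under 0.05 were 21.0%, 13.2%, 6.50%, 12.6% and 15.3%, in the same order. Of the 6 transcription factor genes measured, Msx2, a homeobox gene of early osteoblasts, had the smallest p, with a log2 difference of -0.24 ± 0.075 (SE) at 12 weeks (limma adjusted p = 0.0665). Atf4, a factor known to act late in osteoblasts and in stress responses of all cells, had -0.17 for 24 minus 12 weeks in BALB/c mice (limma adjusted p = 0.227). It was the only gene of these 4 lists above 10.46 in all arrays.

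Among 13 genes of matrix and mineralisation the values with the smallest p were positive. Mmp13, the collagenase of hypertrophic cartilage and osteoblasts, had a log2 difference of 0.47 ± 0.16 (SE) at 12 weeks (limma adjusted p = 0.0919). Mgp, an inhibitor of calcification, had 0.30 ± 0.11 at 24 weeks (limma adjusted p = 0.187). The list's median log2 difference was 0.071 at 12 weeks and -0.055 at 24 weeks. The type I collagen genes, which encode the main protein of bone matrix and were named after their values were seen, had negative differences at both ages. Col1a1 had -0.15 ± 0.096 (SE) at 12 weeks and -0.10 ± 0.11 at 24 weeks (limma adjusted p = 0.368 and 0.727). Col1a2 had -0.091 ± 0.093 and -0.25 ± 0.10 (limma adjusted p = 0.600 and 0.286).

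Of 6 osteocyte genes, Pdpn, which encodes the early osteocyte membrane protein podoplanin, had 0.28 for 24 minus 12 weeks in NeuT mice (limma adjusted p = 0.234). Fgf23, the phosphate-regulating hormone gene held in check by Phex and Dmp1, had -0.29 for the difference of the effects (limma adjusted p = 0.724). Of 12 genes of signalling and coupling, Lrp5, a Wnt co-receptor gene, had 0.28 for 24 minus 12 weeks in NeuT mice (limma adjusted p = 0.205), and Bmp4, a bone morphogenetic protein gene, had -0.26 ± 0.087 (SE) at 12 weeks (limma adjusted p = 0.0914). Medians of the list of osteocyte genes were -0.090 at 12 weeks and of signalling genes -0.083, against -0.025 over all genes. The 24-week medians were -0.10 for osteocyte genes and -0.034 for signalling genes, against -0.00014 over all genes. The transcription factor list had medians of -0.11 at 12 weeks and -0.048 at 24 weeks.

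**Figure D4:**
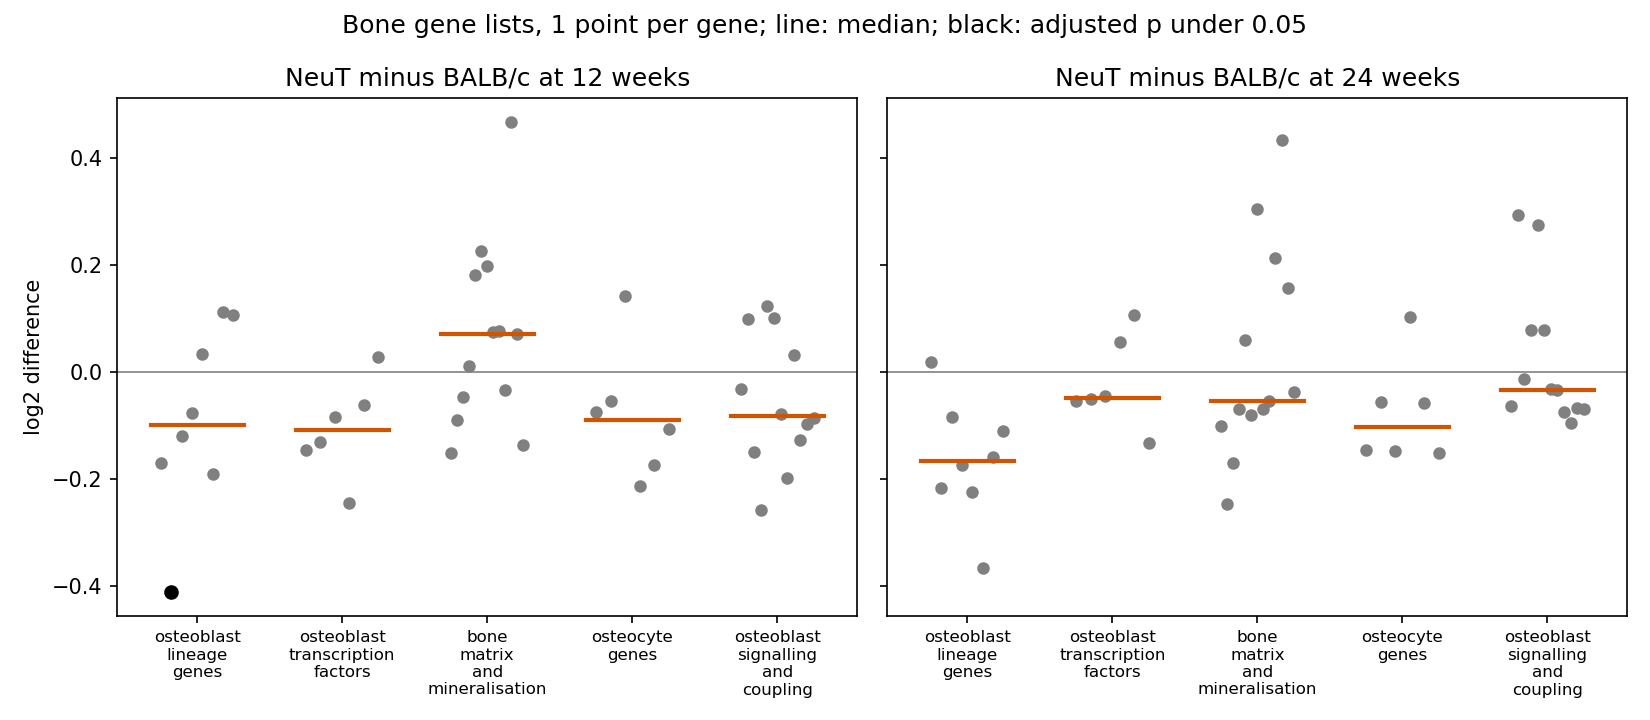
Log2 difference of NeuT minus BALB/c mice (vertical axis) at 12 weeks (left) and 24 weeks (right) for the 8 osteoblast lineage genes and the 37 genes of 4 other bone lists, with 1 point per gene, an orange line at the list's median and black for an adjusted p under 0.05. Alpl at 12 weeks is the only black point, and no other bone gene exceeds 0.47 in size at 12 weeks.

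Markers of other cells that could lie in the preparation were read beside these genes. Over all genes, 21.0% had an unadjusted p under 0.05 for NeuT against BALB/c mice at 12 weeks and 13.2% at 24 weeks. At 12 weeks 4 of 12 neutrophil markers rose in NeuT mice, Mmp8 (log2 difference 1.81), Ltf (1.52), Lcn2 (1.41) and Cxcr2 (0.47). The call of Mmp8 held in 18 of 19 alternatives, while those of Cxcr2, Ltf and Lcn2 held in 10, 9 and 6. The alternatives counted here and below include the neutrophil and B-cell list means as covariates. That fit adjusts the genes of these 2 lists for their own mean, so it is no separate check of them. At 24 weeks 5 neutrophil markers passed as higher, Ltf (1.82), Cebpe (0.62), Ngp (0.59), Cxcr2 (0.54) and S100a9 (0.53, named after its value was seen), and each of these calls held in only 4 or 5 of 17 alternatives. All 12 neutrophil markers had a positive difference at 24 weeks, each at an unadjusted p under 0.05.

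Of 10 monocyte and macrophage markers 4 rose at 12 weeks, Ccr2 (1.25), Lyz2 (0.76), Fcgr1 (0.50) and Csf1r (0.46), and 1 fell, C1qc (-0.33), which was named after its value was seen. Ccr2 passed in all 19 alternatives, Fcgr1 in 18, C1qc in 17, Lyz2 in 12 and Csf1r in 11. Of 12 osteoclast markers only Mmp9, also a neutrophil granule gene, passed, with 1.02 at 12 weeks (held in 14 of 19 alternatives) and 1.07 at 24 weeks (held in 5 of 17).

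Among 13 stromal and CAR markers none passed in limma at 12 weeks (2 at an unadjusted p under 0.05). At 24 weeks Igfbp5 (0.69), Vcam1 (0.47) and Igfbp4 (0.35) passed as higher, calls that held in 3, 10 and 6 of 17 alternatives. On only the groups compared, none of the list genes called at 24 weeks passed (limma adjusted p of 0.102 to 0.198). Kitl, the stem cell factor gene of the same list, had -0.37 for 24 minus 12 weeks in BALB/c mice (limma adjusted p = 0.0482), and its call held in 8 of 18 alternatives and in 2 of 9 fits without 1 array. The median over the stromal list at 24 weeks was 0.23 and that over the osteoblast genes -0.17, and the difference between the lists was not tested.

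All 9 B-cell markers had a negative difference at 24 weeks (-1.01 to -0.46, median -0.84), 7 at an unadjusted p under 0.05, and 1 passed, Blk, which encodes a B-cell kinase (-0.997, limma adjusted p = 0.0282, held in 8 of 17 alternatives). The mean log2 signal of the list was 9.89 to 10.97 in NeuT and 10.997 to 11.27 in BALB/c mice, without overlap. Of 8 megakaryocyte and platelet markers, cells that also make Sparc, none passed in limma at 12 weeks, with 6 at an unadjusted p under 0.05 and a median of -0.26. None of these markers passed at 24 weeks either, with 0 at an unadjusted p under 0.05 and a median of 0.094. Their mean log2 signal was 9.43 to 9.86 in NeuT and 9.90 to 10.21 in BALB/c mice at 12 weeks, also without overlap, and Ppbp (-0.60) and Pf4 (-0.33) had the smallest p (limma adjusted p = 0.0734 and 0.0767). The part of these cells in the values of Sparc was not tested.

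Among 9 endothelial markers Cdh5, which encodes VE-cadherin, fell by 0.54 at 12 weeks and passed in 16 of 19 alternatives. The list's median log2 difference was -0.18 at 12 weeks, with 4 at an unadjusted p under 0.05, and 0.11 at 24 weeks. Its mean log2 signal at 12 weeks was 8.49 to 8.58 in NeuT and 8.64 to 8.73 in BALB/c mice, without overlap. Of the adipocyte list Plin4 (-0.25) did not pass at 12 weeks (limma adjusted p = 0.0734), nor did Fabp4 (-0.73) for 24 minus 12 weeks in BALB/c mice (limma adjusted p = 0.120). Col10a1 (-0.52) and Matn3 (0.28) of the chondrocyte list and Ank1 (-0.48) and Klf1 (-0.36) of the erythroid list did not pass for 24 minus 12 weeks in NeuT mice (limma adjusted p = 0.0645, 0.210, 0.143 and 0.287).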

How the data were processed

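The deposited table holds log2 signals, 1 per probe set and array, made by the authors with RMA (background correction, quantile normalisation and summarisation) and the Transcriptome Analysis Console, per the submitters' processing notes; no source used here names their versions or a build. Of 29129 probe sets, 19572 were paired with 1 gene symbol and none with several; 5222 negative controls served as background, and probe sets without a symbol, 1324 positive controls and 2634 transcript clusters among them, were left out. The probe set with the highest mean was kept for the 55 genes with more than 1, leaving 19505 genes. Arrays give no depth; their number limits the precision.

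A limma 3.58.1 model in R 4.3.3 with 1 mean per group (14 residual and 8.68 prior degrees of freedom) gave 5 contrasts, two-sided, with Benjamini-Hochberg adjustment over all genes and a threshold of 0.05. The fit was tested on simulated data. Replicates are different mice, numbered in accession order.

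The members and lists were chosen with earlier results of these data known. All members are given, and of each list the named genes are those past the threshold, at most 4 per contrast by size, or 2 by smallest p where none passed, and for each member the 3 most alike genes. Alternatives were 2 further normalisations, a filter on dim genes, the mean of probe sets, other moderation, array weights, only the groups compared and leaving out each array; added after seeing the data were blood-cell covariates and leaving out 4 arrays. Promoters are from RefSeq. Figures used matplotlib 3.10.9 in Python 3.11.15.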

Additional observations from a re-analysis of the deposited data

Results flagged for a closer look

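Among the 32 groups of values of the 8 genes, 3 held an array whose gap to the nearest other array was large for the group's whole range, where chance gives about 1.6. Alpl in BALB/c 12-week replicate 2 was 8.31, against 7.94 to 8.01 in the other 4 arrays; without it the log2 difference at 12 weeks was -0.34 and still passed (limma adjusted p = 0.0445, n = 5 and 4). Bglap in BALB/c 12-week replicate 1 was 9.59, against 9.47 to 9.50 in the others. Phex in BALB/c 24-week replicate 4 was 8.18, against 7.77 to 7.78 in the others, and that array was also the highest of its group in Sparc, Ibsp and Dmp1 and the lowest in Sp7.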

How the results depend on the processing

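The count of members past the threshold was the same as in the report (1 at 12 weeks, 0 in the other 4 contrasts) under every alternative run except the neutrophil and B-cell covariates, where it was 0 at 12 weeks. Over all members and contrasts, 734 of the refitted values kept sign and side of the threshold, 44 that were not past it in either fit changed sign, and 1 call ended, that of Alpl with those covariates. The sign could not change with the mean of probe sets, the dim-gene filter, other moderation or only the groups compared, which leave a member's log2 difference as it was. The lowest limma adjusted p of an uncalled member was 0.215 in the main fit, so most values had little room to change side. Of the other named genes' values 471 kept sign and side, 169 lost the call and 20 gained one, and Lcn2, itself in the neutrophil list, turned to -0.14 at 12 weeks with the covariates.

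The counts over all genes moved far more. At 12 weeks (749) they were 2088 with array weights, 4 with the covariates and 230 to 1363 without 1 array. At 24 weeks (274) they were 114 after a further quantile normalisation, 101 after cyclic loess, 577 with array weights, 1 on only the groups compared, 2 with the covariates, 4 without the 4 arrays that stand apart and 8 to 641 without 1 array. For the difference of the effects (2) they were 4 after quantile normalisation, with trend and robust moderation and with the covariates, 10 with array weights, 1 without the 4 arrays and 1 to 3 without 1. For age in NeuT mice (7) they were 3 after quantile normalisation and cyclic loess, 13 with the dim-gene filter and with trend and robust moderation, 72 with array weights, 0 on only the groups compared, 25 with the covariates, 0 without the 4 arrays and 1 to 177 without 1. For age in BALB/c mice (113) they were 182 after quantile normalisation, 220 with the filter, 2375 with array weights, 183 on only the groups compared, 384 with the covariates, 172 without the 4 arrays and 0 to 589 without 1. The cause was not tested. The lowest counts came without BALB/c 12-week replicate 2 at 12 weeks, NeuT 24-week replicate 1 at 24 weeks and BALB/c 24-week replicate 1 for age in BALB/c mice; the highest came without NeuT 12-week replicate 5, NeuT 24-week replicate 2 (24 weeks and age in NeuT mice) and BALB/c 24-week replicate 3. Fits on only the groups compared do not exist for the difference of the effects, which uses all 4. Signals of 7 members below the 95th percentile of the negative controls limit what their sizes mean. No paired analysis was run. The sample titles number the mice in a run shared by both models at each age, but the labels state no pairs. What neighbouring numbers mean is not given, so a pairing by litter or processing day was not tested.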
